A study of Arabidopsis thaliana with 6 samples.

Results

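Expression was examined for 5 genes in stems of *Arabidopsis thaliana* that overexpress *CLE41*. They were the TDIF peptide genes *CLE41* and *CLE44* and the PXY-related receptor kinase genes *PXL1* (AT1G08590), *PXL2* (AT4G28650) and *MOL1*. The genes were chosen by name, with earlier results of these data known. Each had 1 probe set tied to it alone, and they are 5 of 13355 genes with a probe set of their own. Wild-type plants (WT) of ecotype Columbia were compared with 35S::CLE41 plants made in the same background, in which the viral 35S promoter, active in most tissues, drives *CLE41*. All plants were 5 weeks old and were kept in long days, with 16 h light and 8 h darkness. The tissue was the base of the inflorescence stem, from which the lowest 1 cm next to the rosette was left off. There were 3 arrays per genotype, 1 for each sample. The labels do not say that samples came from separate plants or how many transgenic lines were used, so the p-values rest on a spread between samples that could be technical.

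TDIF is a short secreted peptide cut from the precursors encoded by *CLE41* and *CLE44*, which are expressed in and near the phloem. It binds PXY, a leucine-rich repeat receptor kinase of the vascular cambium, the dividing layer between phloem and xylem, and PXY signalling promotes cambial division, orients the divisions and holds back xylem differentiation. PXL1 and PXL2 are the closest relatives of PXY, and MOL1 is a related receptor-like kinase that restrains cambium activity. No probe set is tied to *PXY* in the annotation used here, so *PXY* was not analysed here.

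Values are normalized intensities on the log2 scale, where a difference of 1 is a doubling. A gene is called where its limma adjusted p over all 22746 probe sets lay under 0.05. WT replicate 2 stood apart from its group: 365 probe sets were at least 2-fold away from the mean of the other WT arrays, while the same measure gave 32 to 100 in each of the other 5 arrays. The tests of the 5 genes and the counts in gene lists are therefore also given without it. Of the stem vascular markers 4 of 22 were measured, and the xylan synthesis genes *IRX15* and *GUT2* were bright, from 8.42 to 10.74. Both measured root hair markers, *EXPA7* and *EXPA18*, lay under 5.67 on every array, a level that 40% of probe sets do not reach and under which a probe set is called dim here. The *OPS* mean in WT also lay under this level, though its mean over all arrays did not. No flower marker was measured. A gene counts as measured here only where the annotation ties a probe set to it alone. In that annotation 8730 of 22746 probe sets had no listed gene.

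Of the 5 genes, *CLE41* and *MOL1* were higher in 35S::CLE41 and none was lower. *CLE44* did not pass the test, and *PXL1* and *PXL2* had lower means in 35S::CLE41 without passing it. Thus 2 of 5 were called, where 14.8% of all probe sets were called, 7.93% higher and 6.86% lower. The genotypes' arrays did not overlap for the same 2 genes, where 34.5% of all probe sets did not overlap, 18.7% with 35S::CLE41 higher and 15.8% with it lower. One of the 2 is the overexpressed gene itself, and the 5 genes were chosen with earlier results of these data known. The count of 2 in 5 is therefore not a fair comparison with these shares. Without WT replicate 2 *CLE41* and *MOL1* remained called, where 12.6% of all probe sets were. RNA was taken from whole stem, so more cells that express a gene and more RNA per cell cannot be told apart.

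**Figure D1:**
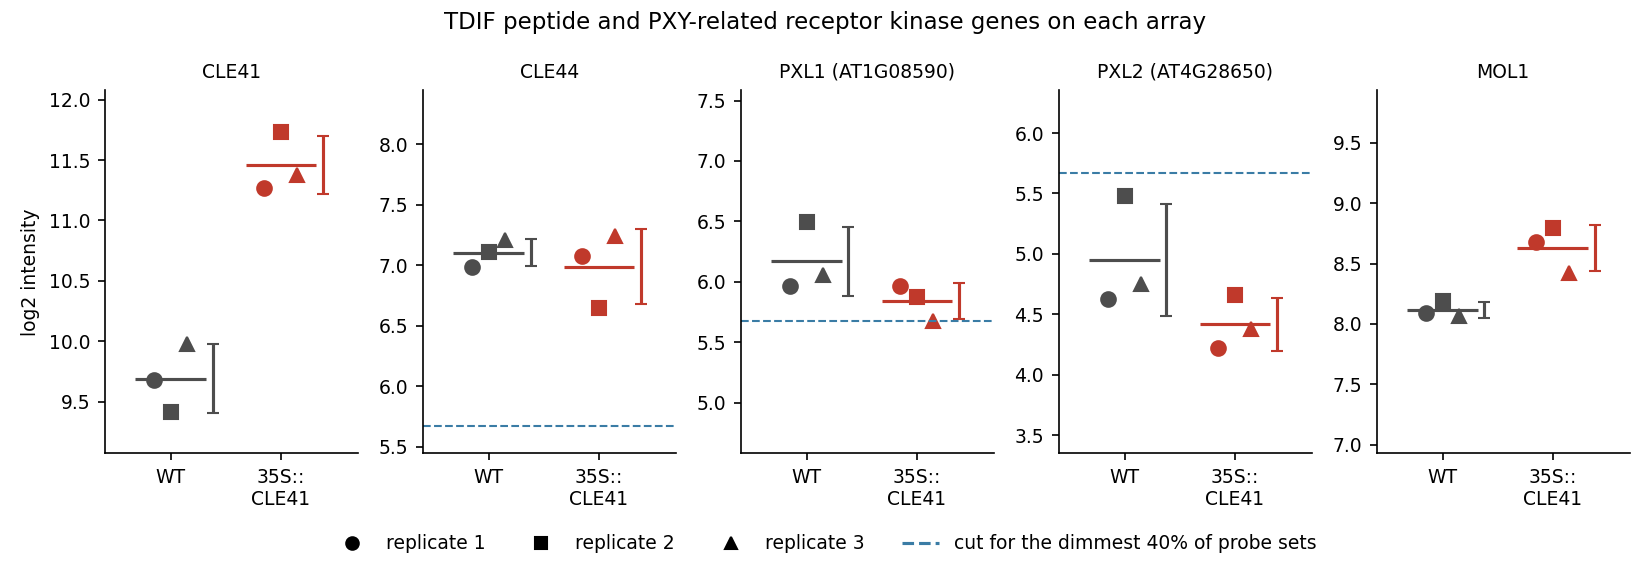
Log2 intensity of the 5 genes on each array (vertical axes differ in position but all span the same range). Symbols mark the replicate, horizontal lines the group mean, bars the SD (n = 3) and the dashed line the level of 5.67 under which 40% of probe sets fall. The groups are apart for *CLE41* and *MOL1* and overlap for the other genes, and the WT replicate 2 square is the highest point for *PXL1* and *PXL2*.

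*CLE41* (AT3G24770), the source of the overexpressed ligand, had log2 intensities of 9.68, 9.42 and 9.98 in WT replicates 1, 2 and 3. In 35S::CLE41 they were 11.27, 11.73 and 11.38. Every transgenic array lay above every WT array, with a gap of 1.28 between the highest WT and the lowest 35S::CLE41 array, which is wider than the range within either group (0.56 and 0.47). The means were 9.69 ± 0.28 and 11.46 ± 0.24 (SD, n = 3 each). The difference of 1.77 (SE 0.18, limma adjusted p = 0.0013) corresponds to 3.40-fold, with a 95% confidence interval of 2.57 to 4.51. Across the array 0.897% of probe sets differed by at least as much in either direction. The probe set was bright in WT too, at linear intensities from 684 to 1012 against 2461 to 3402 in 35S::CLE41. Which stretch of the transcript its probes match was not examined, so the share of the signal that comes from the transgene cannot be stated. The highest 35S::CLE41 array was replicate 2 and the lowest WT array replicate 2. Without single arrays the difference stayed between 1.63 and 1.91 and was called in 6 of 6 fits, and it was 1.63 (limma adjusted p = 0.00102) without WT replicate 2.

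*CLE44* (AT4G13195), the other TDIF precursor gene, had 6.99, 7.11 and 7.21 in WT and 7.08, 6.64 and 7.25 in 35S::CLE41. The groups overlapped: 35S::CLE41 held both the highest value, in replicate 3, and the lowest, in replicate 2. The means were 7.10 ± 0.11 and 6.99 ± 0.31 (SD, n = 3 each), a difference of -0.11 (SE 0.16, limma adjusted p = 0.715). As a ratio of 35S::CLE41 to WT this is 0.924, with a 95% confidence interval of 0.714 to 1.20, so a change of the size seen for *CLE41* lies outside it. The sign rested on 35S::CLE41 replicate 2, without which the difference was 0.058, while without WT replicate 2 it was again -0.11 (limma adjusted p = 0.793). The changes of the 2 ligand genes were set against each other by taking *CLE41* minus *CLE44* on each array. The change of *CLE41* exceeded that of *CLE44* by 1.88, or by 1.74 without WT replicate 2, and with all arrays every 35S::CLE41 array lay above every WT array in this measure. A two-sided exact permutation test gave p = 0.1, the smallest that 3 arrays against 3 allow, and 0.1 after adjustment over the 3 pairs of genes tested.

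**Figure D2:**
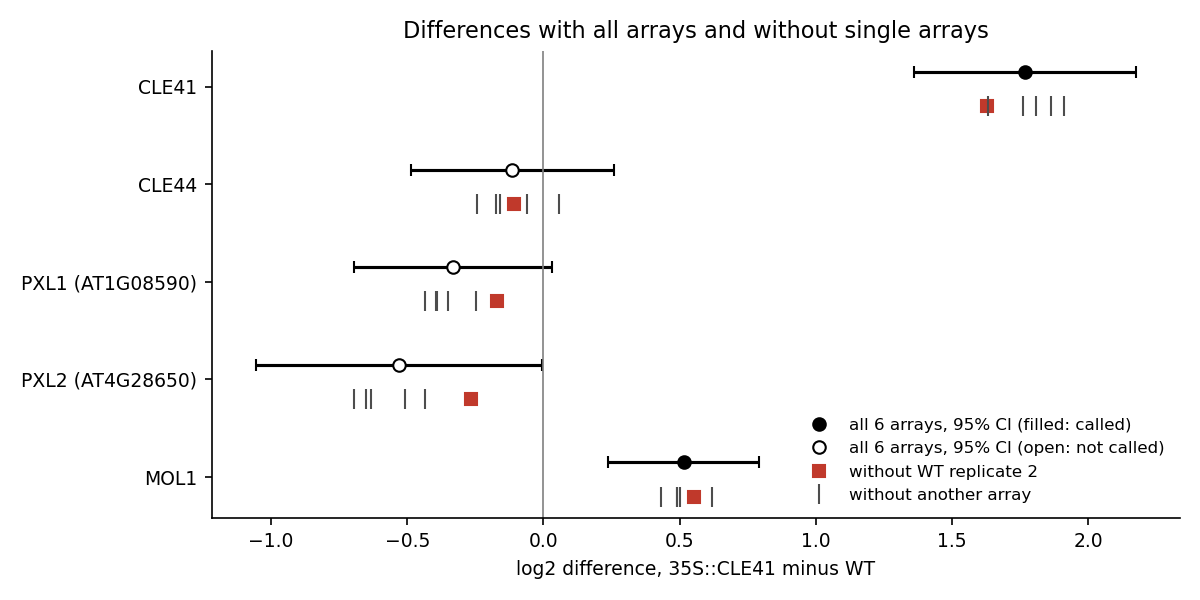
Log2 difference of each gene, 35S::CLE41 minus WT. Circles with bars give the value from all 6 arrays and its 95% confidence interval, filled where called, red squares the value without WT replicate 2 and ticks the values without each other array. *CLE41* stays between 1.63 and 1.91 and *MOL1* between 0.43 and 0.62, while the squares for *PXL1* and *PXL2* are the values nearest to 0.

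Among the receptor kinase genes *MOL1* (AT5G51350), whose mutants show more lateral growth, had 8.09, 8.19 and 8.07 in WT and 8.68, 8.80 and 8.42 in 35S::CLE41. The WT arrays lay within 0.13 of each other and the 35S::CLE41 arrays within 0.37, with a gap of 0.23 between the groups. The means were 8.12 ± 0.07 and 8.63 ± 0.19 (SD, n = 3 each). *MOL1* rose by 0.51 (SE 0.12, limma adjusted p = 0.0267), or 1.43-fold, with a 95% confidence interval of 1.18 to 1.73. A difference of this size was common in these stems: 16.2% of probe sets differed by at least as much in either direction. The lowest 35S::CLE41 array was replicate 3. The call held without WT replicate 2 (difference 0.55, limma adjusted p = 0.0329) and without 35S::CLE41 replicate 3 (0.62), and was lost without each of the other 4 arrays, where the difference ran from 0.43 to 0.50 and limma adjusted p reached 0.0904.

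*PXL1*, one of the closest relatives of *PXY*, had 5.96, 6.49 and 6.06 in WT and 5.96, 5.88 and 5.67 in 35S::CLE41. The groups touched, with WT replicate 1 and 35S::CLE41 replicate 1 at the same level, and WT replicate 2 stood 0.48 above the other WT arrays. The difference of -0.33 (SE 0.16, limma adjusted p = 0.211) was not called and had a 95% confidence interval from -0.70 to 0.03. Without WT replicate 2 it was -0.17 (limma adjusted p = 0.465), and with arrays weighted by their quality -0.20 (limma adjusted p = 0.365).

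*PXL2*, the other close relative, had 4.63, 5.48 and 4.75 in WT and 4.23, 4.66 and 4.38 in 35S::CLE41. Here 35S::CLE41 replicate 2 lay just above WT replicate 1 and the other transgenic arrays lay below all WT arrays. All 6 values fell under 5.67, among the dimmest probe sets, so the size of the difference is uncertain. It was -0.53 (SE 0.23, limma adjusted p = 0.167), with a 95% confidence interval from -1.06 to -0.01 that is not adjusted for the number of probe sets. WT replicate 2 stood 0.79 above the other WT arrays, and without it the difference was -0.27 (limma adjusted p = 0.303). Adding 32 to the linear intensities before taking log2, which damps dim probe sets, gave -0.25 (limma adjusted p = 0.28). The same array was thus the highest of all 6 for both *PXL1* and *PXL2*, and neither gene was called in any of the 6 fits that left out 1 array.

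The change of *MOL1* was set against those of its relatives in the same way as for the ligand genes. It exceeded that of *PXL1* by 0.85 and that of *PXL2* by 1.05, and in both measures every 35S::CLE41 array lay above every WT array. Both two-sided exact permutation tests gave p = 0.1, the smallest possible here, and 0.1 after adjustment over the 3 pairs. Without single arrays the excess stayed between 0.72 and 0.94 for *PXL1* and between 0.82 and 1.20 for *PXL2*, and with 32 added to the linear intensities it was 0.69 and 0.72. Without WT replicate 2 both differences in change were still positive, at 0.72 and 0.82.

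In the wider CLE family of secreted peptides, 8 of 32 listed genes were measured, 2 rose, 1 fell and 5 were not called. The median log2 difference was -0.09, against -0.003 over all 13355 genes, of which 7.05% were called higher and 5.56% lower. Apart from *CLE41* and *CLE44*, the list gave 1 rise and 1 fall among 6 genes, 4 of them among the dimmest. *CLE26* (AT1G69970), a CLE peptide gene known from the root phloem, had 6.19, 6.06 and 6.13 in WT and 6.64, 6.60 and 6.51 in 35S::CLE41. It rose by 0.46 (SE 0.09, limma adjusted p = 0.0174). Its call held in 4 of 6 fits without single arrays, including that without WT replicate 2, and was lost without 35S::CLE41 replicates 1 or 2 (differences 0.43 and 0.45). *CLE27* (AT3G25905) had 4.71, 4.84 and 4.94 in WT and 4.33, 4.39 and 4.38 in 35S::CLE41. It fell by 0.46 (SE 0.10, limma adjusted p = 0.0196) among the dimmest probe sets. Its call was kept in 2 of 6 such fits, those without WT replicates 1 or 2, and the difference ran from -0.52 to -0.41 over the 6. Both had groups that did not overlap, as did 34.5% of all probe sets and the uncalled *CLE21* and *CLE40* of the same list. The changes of *CLE26* and *CLE27* were smaller in size than that of *CLE41*. Without WT replicate 2 the list again had 2 rises and 1 fall.

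A list was drawn up for receptor kinases of subfamily LRR-XI, and 10 of its 26 genes were measured. Its membership was not checked here against a classification, and kinase genes left off it were not counted. *MOL1* was the 1 called on this list, with and without WT replicate 2. Over all genes 7.05% were called higher and 5.56% lower, so 1 call in 10 listed genes is near the share over all genes. It does not describe kinase genes left off the list. The median log2 difference was -0.05, and 7 of the 10 were among the dimmest probe sets. The listed kinase gene with the next smallest p was AT4G08850, known here by its locus only, and its subfamily was not checked. It had 8.66, 7.79 and 8.44 in WT and 8.72, 8.77 and 9.28 in 35S::CLE41. Its groups did not overlap, yet the difference of 0.63 (SE 0.24, limma adjusted p = 0.128) was not called. WT replicate 2 was its lowest array, 0.76 below the other WT arrays, and without it the difference was 0.37.

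**Figure D3:**
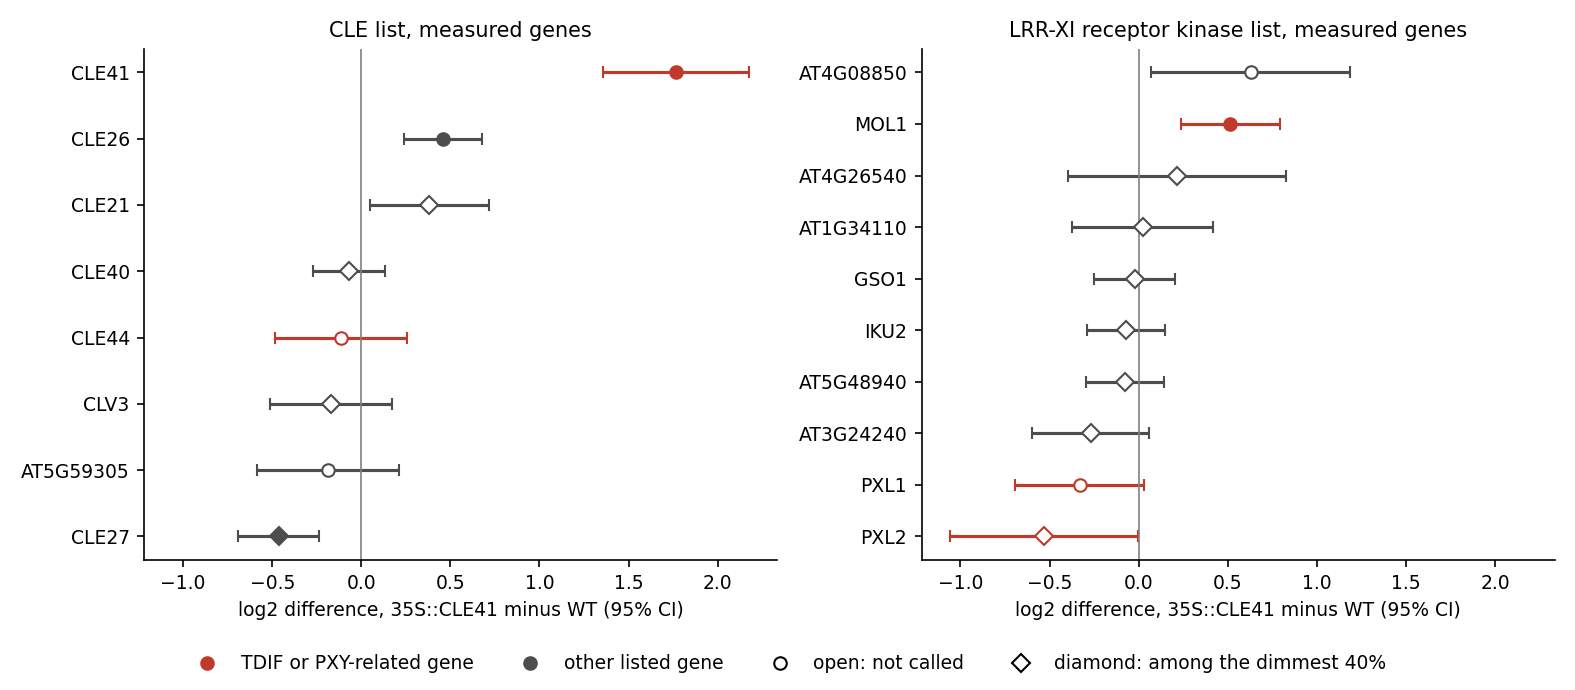
Log2 differences, 35S::CLE41 minus WT, with 95% confidence intervals for the 8 measured genes of the CLE list and the 10 of the LRR-XI list. Red marks the TDIF and PXY-related genes, filled symbols called genes and diamonds probe sets among the dimmest 40%. In the CLE list 3 genes are filled and in the LRR-XI list *MOL1* alone.

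A list drawn up for the TDIF-PXY pathway was thinly covered by the annotation used here, with 2 of 24 genes measured. Whether these 2, *PTL* and *LHW*, act in the pathway was not examined. *PTL* (AT5G03680), a trihelix transcription factor gene, had 5.44, 4.97 and 5.36 in WT and 5.88, 6.23 and 5.92 in 35S::CLE41. It rose by 0.75 (SE 0.16, limma adjusted p = 0.0176), and by 0.61 without WT replicate 2, its lowest array. The call was lost in 1 of 6 fits, that without 35S::CLE41 replicate 2 (0.65). By its mean over all arrays the *PTL* probe set was among the dimmest. *LHW*, a bHLH gene needed for normal vascular cell number, had 8.53, 8.85 and 8.41 in WT and 8.90, 9.10 and 8.73 in 35S::CLE41, and its difference of 0.31 (SE 0.15, limma adjusted p = 0.215) was not called. It ran from 0.22 to 0.44 without single arrays, the highest value being that without WT replicate 2 (limma adjusted p = 0.0735), and was called in none of the 6 fits.

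None of the 4 measured vascular markers was called with all arrays. Their summed linear intensity ran from 1133 to 2552 in WT and from 2506 to 3494 in 35S::CLE41, so the groups overlapped, and the lowest sum was that of WT replicate 2. The brighter *IRX15* and *GUT2* weigh most in this sum. *IRX15* had 9.94, 8.42 and 9.89 in WT and 10.63, 10.28 and 10.04 in 35S::CLE41, a difference of 0.90 (SE 0.39) that became 0.40 without WT replicate 2. *GUT2* differed by 0.45 (SE 0.30), and by 0.13 without that array. The phloem genes *OPS* and *SWEET11*, named after their values were seen, differed by 0.41 (SE 0.27) and 0.22 (SE 0.19). *OPS* was called in 1 of 6 fits without single arrays, that without WT replicate 2 (0.71), and was 0.14 without WT replicate 3. *SWEET11* was called in none and was 0.07 without WT replicate 2 and 0.40 without WT replicate 3. The part of vascular marker levels in the rise of *MOL1* was not tested. The summed root hair markers ran from 46.6 to 62.1 in WT and from 49.8 to 58.3 in 35S::CLE41.

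The genes with the most similar profiles were sought by Pearson's r over the 6 arrays, among probe sets tied to 1 gene and above the dimmest 40%. There were 7347 or 7348 candidates for each gene, and the 6 arrays share the genotype difference and the shift of WT replicate 2, so r describes the match only and has no p. Closest to *CLE41* were *VPS46.2*, which encodes a charged multivesicular body protein, AT3G50650 and AT1G50570, with r from 0.996 to 0.998. Of these AT3G50650 rose by 1.32 (SE 0.13), from a WT mean of 6.95 to 8.27, and AT1G50570 by 0.93 (SE 0.13). *VPS46.2* rose by 0.36 (SE 0.09), so a similar profile went with a much smaller size.

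Closest to *MOL1* were AT1G02080, AT5G23430 and AT5G63930, with r from 0.989 to 0.992. AT5G63930 had 5.77, 5.89 and 5.66 in WT and 6.64, 6.89 and 6.44 in 35S::CLE41 and rose by 0.88 (SE 0.13), more than *MOL1* itself. It was called (limma adjusted p = 0.00599) and was not on the list drawn up for LRR-XI kinases. Whether AT5G63930 encodes such a kinase was not checked here. AT5G23430 rose by 0.48 (SE 0.11), and AT1G02080 differed by 0.28 (SE 0.10) without being called. For *CLE44* the closest were AT1G65560, *ATCRT1* and AT5G38830, none of them called, which all had their lowest value in 35S::CLE41 replicate 2. For *PXL1* they were AT1G49930, AT3G32270 and AT5G47360, and for *PXL2* AT5G11550, AT2G27775 and AT3G23940. All 6 had their highest value in WT replicate 2, from 0.29 to 0.84 above the other WT arrays, and none was called. Shared highs and lows of this kind follow from picking genes by their match.

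**Figure D4:**
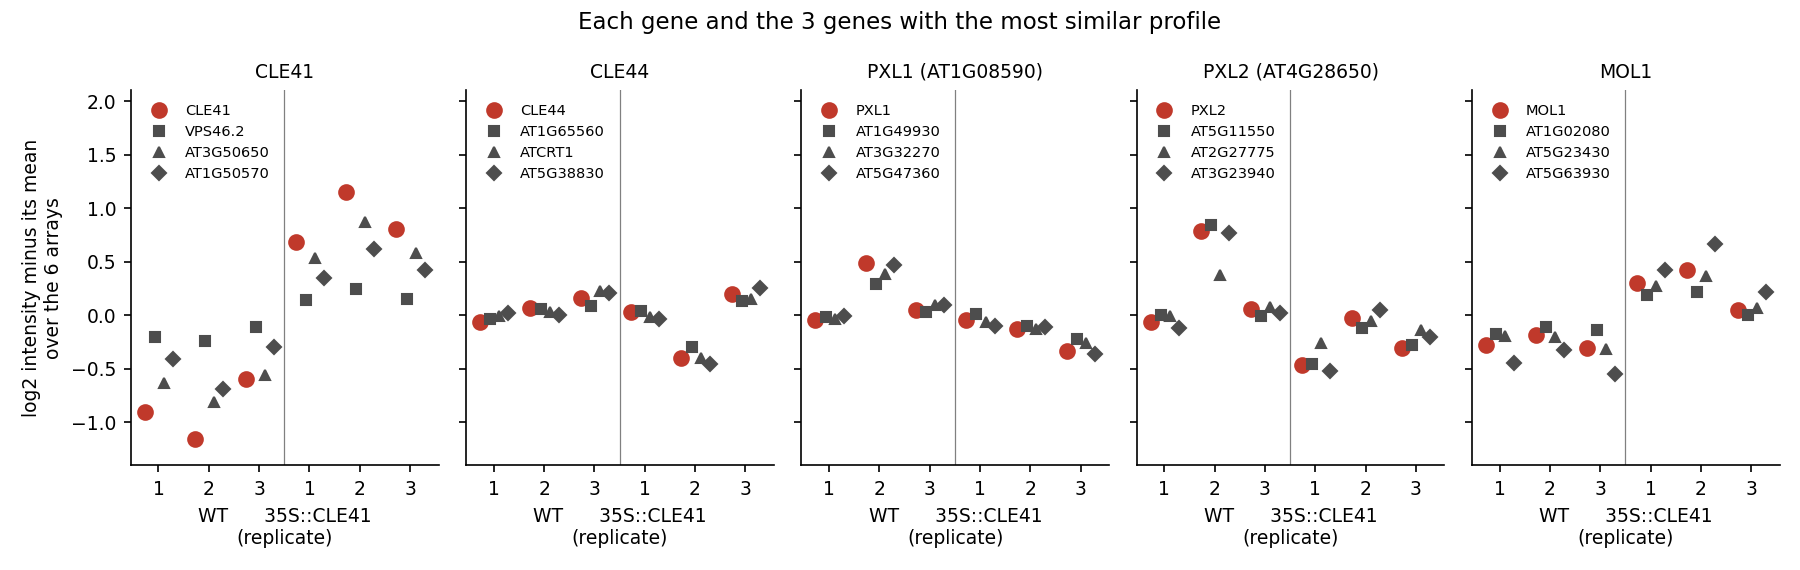
Log2 intensity minus its mean over the 6 arrays for each of the 5 genes (red) and the 3 genes with the highest Pearson's r (grey), by replicate, with WT to the left and 35S::CLE41 to the right of the vertical line. The panels for *CLE41* and *MOL1* separate by genotype, while WT replicate 2 is the highest array in the panels for *PXL1* and *PXL2*. The grey genes were picked for their match to the red gene.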

How the data were processed

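Biotin-labelled RNA was hybridised to 1 array per sample after a two-cycle labelling, per the labels' protocols. RMA and limma were used per the submitters' processing notes, with no version. The deposited table held a linear intensity for each probe set, and log2 was taken. Normalization between arrays by the authors was judged only from array medians, which were close (91.9 to 101). All medians in 35S::CLE41 (97.4, 101 and 97.6) lay above those in WT (96.3, 92.1 and 91.9), so this offset follows genotype. With arrays shifted to 1 median *MOL1* differed by 0.44 (limma adjusted p = 0.0439). No genome build was named in the sources used here, so no coordinates are printed. Gene names came from the platform's annotation, updated through a RefSeq table: 13513 mapped to 1 gene, 503 to several and 8730 were not listed. Each of the 22746 probe sets was tested with limma 3.58.1 in R 4.3.3 (lmFit, eBayes, genotype as factor, two-sided, Benjamini-Hochberg). The procedure was also run on simulated data with independent noise. That simulation held no outlying array and no offset between genotypes, so it does not cover these features of the data. For lists, the probe set with the highest mean stood for a gene. Named genes were the 5, all measured genes of the TDIF-PXY list and the 3 most similar profiles. From the other lists they were the called genes or otherwise the 2 with the smallest p. The members and lists were chosen with earlier results of these data known. No background or detection call was used, and the number of arrays limits the precision. Replicate arrays were distinct, with an SD of log2 differences from 0.24 to 0.37 between arrays of 1 genotype. Figures were drawn with matplotlib 3.10.9.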

Additional observations from a re-analysis of the deposited data

How the results depend on the processing

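Over 7 alternatives that kept all arrays (quantile normalization again, a replicate block, arrays shifted to 1 median, leaving the dimmest 40% out, eBayes trend and robust, array weights, pseudocount of 32), *CLE41* ran from 1.67 to 1.80 and *MOL1* from 0.44 to 0.52, both called in each, and *CLE44* (-0.20 to -0.02) and *PXL1* (-0.41 to -0.20) were called in none. *PXL2* (-0.61 to -0.25, the latter with the pseudocount) was called in none of the 6 that kept its probe set. Leaving out each array in turn, *MOL1* ran from 0.43 to 0.62 with its call lost in 4 of 6 fits, each of which also had fewer arrays, and *CLE44* from -0.24 to 0.058. The differences between changes ran from 1.57 to 2.05 for *CLE41* and *CLE44*, all with the same direction. The count of called probe sets, 3364 with all arrays (1803 higher, 1561 lower), was 1392 higher and 1975 lower with arrays shifted to 1 median. It ran from 1699 to 2872 without single arrays, with 1906, 1699 and 1930 without 35S::CLE41 replicates 1, 2 and 3. The labels do not say that replicate numbers pair the samples. Deviations of same-numbered samples correlated at -0.01, 0.08 and -0.09, and 2 of 6 arrays correlated best with their own number. The replicate block gave 2897 called probe sets and changed no call among the 5 genes. Counts in the lists without WT replicate 2 were added after seeing the data.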
